A study of Mus musculus with 16 samples.

Results

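Tail tendon fascicles of mice with and without Vhl were compared here through 6 genes that have no settled role in tendon: Glis3, Gpr176, Sfmbt2, Rundc3b, 2610528A11Rik and 4930452B06Rik. They were taken by name, as genes among the most consistently higher in the knockout, from 25719 genes listed in every library and 14803 tested. They were selected on the difference between the genotypes, relative to the spread of CPM, in these same libraries, so their levels by genotype are described below without a test. All 6 passed the filter on low counts. The knockout (KO, n = 8) carried ScxCre and floxed Vhl (ScxCre;Vhlf/f), in which Cre under the control of Scx, a gene of the tendon lineage, deletes Vhl in cells of that lineage. The 8 other libraries were wild type (WT), whose alleles at Vhl and Scx, and the age and sex of all animals, are not given in the sources used here. RNA came from whole fascicles with all their cells, so vessel, blood or muscle cells in the dissected tissue contribute to it. In such bulk RNA, more cells of a type and more RNA per cell cannot be told apart.

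Vhl encodes the subunit of a ubiquitin ligase that binds hydroxylated HIF alpha subunits and sends them for degradation. Without it, HIF proteins stay stable at normal oxygen and bind DNA at a short core, ACGTG or GCGTG, near genes of glycolysis, angiogenesis and matrix modification. The 6 genes come from different families. Glis3 encodes a Krüppel-like zinc finger transcription factor known for its roles in pancreatic beta cells, thyroid and kidney. Sfmbt2 encodes a Polycomb-group protein with MBT repeats, is imprinted in the mouse placenta and carries a cluster of microRNAs in an intron. Gpr176 encodes an orphan receptor that couples to the G protein Gz and lowers cAMP in the circadian pacemaker of the brain. 2610528A11Rik, also named Gpr15l, encodes a small secreted peptide of skin and gut epithelium that is a ligand of the receptor GPR15. Rundc3b encodes a RUN-domain protein that binds the small GTPase RAP2. 4930452B06Rik, named Cfap20dc in RefSeq, encodes a protein related to a protein of cilia, with a function that is not settled.

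The labels were checked on Vhl itself. Vhl was measured at 7.51 to 10.9 CPM (counts scaled to the size of the library) in KO and at 14.1 to 25.8 CPM in WT, with no overlap. Total counts lay between 10488355 and 18753254 in KO and between 10792900 and 16379401 in WT (exact permutation test, two-sided, p = 0.620, n = 8). All 13 HIF targets of a fixed list were higher in KO, and of 10 tendon cell markers 6 were lower and 1 was higher. The HIF target score, the mean log2 CPM of that list, was 7.34 to 8.01 in KO and 3.67 to 4.08 in WT. Of the tested markers of other cells, 6 of 8 endothelial, 4 of 7 mural and 5 of 5 erythroid markers were higher in KO, and 1 mural marker was lower. Higher too were 3 of 7 macrophage, 1 of 5 Schwann, 1 of 1 adipocyte and 1 of 10 muscle markers. The adipocyte marker was Fabp4, at 0 to 1.34 CPM in WT and 0.510 to 50.1 CPM in KO. The other adipocyte markers of the list were too low to test. Among the endothelial markers Pecam1 was also low in WT, at 0.253 to 2.02 CPM. Of 4 chondrocyte markers 2 were higher and 1 lower, and of 5 keratinocyte markers 1 was higher and 3 lower. Of all tested genes 25.6% were higher and 22.7% lower. The endothelial markers summed to 57.5 to 468 CPM in KO against 40.5 to 57.7 CPM in WT. Muscle markers summed to 132 to 7493 CPM in KO and 49.5 to 3563 CPM in WT, and the 3 libraries KO 6, 7 and 8 stood apart from the other KO libraries in this score (8.32 to 8.89 against 3.10 to 5.87). The part of these markers in the results below was not tested, except where a value is given.

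The letters ACGTG and GCGTG were searched on both strands in the 250 bases upstream of each RefSeq start (GRCm38.p6). The reverse complement of ACGTG can overlap ACGTG itself by all but 1 base; no matches overlapped here. Either motif was found in 38.6% of 32851 promoters of this length, ACGTG in 16.6% and GCGTG in 28.2%, and counted per gene in 41.5% of 27025 genes. The promoters of Gpr176, Rundc3b and 2610528A11Rik held at least 1 match, those of the other 3 genes none. This share of 3 in 6 is read as a description only, and the absence of these letters from a window says nothing of HIF. The 3 windows with matches are printed 5′ to 3′ on the strand of the gene, with each match in capitals (a match on the opposite strand appears as its reverse complement). They lie at chr2:118373420-118373669 (minus strand) for Gpr176, chr5:8622953-8623202 (minus strand) for Rundc3b and chr14:37110102-37110351 (minus strand) for 2610528A11Rik, and contain no annotated exon.
Gpr176: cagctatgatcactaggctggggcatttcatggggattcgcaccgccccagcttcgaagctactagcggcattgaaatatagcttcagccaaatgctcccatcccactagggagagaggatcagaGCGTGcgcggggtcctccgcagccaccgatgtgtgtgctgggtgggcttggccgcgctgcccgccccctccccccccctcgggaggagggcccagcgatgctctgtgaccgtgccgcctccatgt
Rundc3b: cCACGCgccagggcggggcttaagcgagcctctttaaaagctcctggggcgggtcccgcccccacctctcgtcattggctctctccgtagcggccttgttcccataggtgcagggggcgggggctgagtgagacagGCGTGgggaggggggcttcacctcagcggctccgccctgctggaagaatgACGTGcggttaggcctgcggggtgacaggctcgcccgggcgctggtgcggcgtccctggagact
2610528A11Rik: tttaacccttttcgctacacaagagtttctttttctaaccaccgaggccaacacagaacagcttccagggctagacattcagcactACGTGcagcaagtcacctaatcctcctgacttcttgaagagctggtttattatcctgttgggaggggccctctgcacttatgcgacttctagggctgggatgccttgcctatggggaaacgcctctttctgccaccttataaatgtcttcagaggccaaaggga
In Gpr176 the GCGTG began 125 bases before the start. Rundc3b held 3 matches, a GCGTG on the opposite strand 249 to 245 bases before the start, a GCGTG 114 to 110 bases before it and an ACGTG 64 to 60 bases before it. In 2610528A11Rik the ACGTG lay 164 to 160 bases before the start. The share of G and C was 75.6% for Glis3, 69.2% for Rundc3b, 64.0% for Gpr176, 58.4% and 60.8% for the 2 promoters of Sfmbt2, 56.0% for 4930452B06Rik and 49.2% for 2610528A11Rik. Over all promoters the median was 52.4% and the quartiles were 45.2% and 61.2%.

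All 6 genes were higher in every KO library than in every WT library. The choice fixed this: 25.6% of the tested genes were higher in KO by the edgeR test (Benjamini-Hochberg adjusted p under 0.05), 22.7% were lower, and 10.8% were higher with no overlap between the groups. With libraries scaled to total counts alone, 85.4% of called genes were higher in KO, against 53.0% with TMM scaling, and the median log2 difference of all tested genes moved from 0.02 to 0.32. Ranked by the test statistic among the genes higher in KO, Glis3 was 3, 2610528A11Rik 4, Gpr176 8, Rundc3b 9, 4930452B06Rik 13 and Sfmbt2 16. These ranks describe how the genes were chosen and carry no test.

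Among the nuclear factors, Glis3 (ENSMUSG00000052942, chromosome 19) was measured at 2.72 to 4.83 CPM in WT, with a median of 3.80 CPM. Its KO libraries lay between 54.1 CPM in KO 6 and 78.0 CPM in KO 1, with a median of 67.3 CPM. The lowest KO library was thus 11.2 times the highest WT library. The raw counts behind the WT values were 28 to 54 per library, and those behind the KO values 685 to 1399. The means were 66.1 ± 7.87 CPM in KO and 3.74 ± 0.724 CPM in WT (SD, n = 8), a fitted log2 difference of 4.15 (SE 0.114). Of the 6 genes, Glis3 had the highest WT count and the smallest spread among the KO libraries, the highest being 1.44 times the lowest.

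Sfmbt2 (ENSMUSG00000061186, chromosome 2) was measured at 0.869 to 1.44 CPM in WT, with a median of 1.00 CPM, from 9 to 19 counts per library. In KO it ranged from 16.2 CPM in KO 6 to 27.0 CPM in KO 1, with a median of 20.6 CPM and 217 to 465 counts. The gap between the groups was 11.3 times, lowest KO over highest WT. Means were 20.9 ± 3.61 and 1.06 ± 0.182 CPM (SD, n = 8), and the fitted log2 difference was 4.28 (SE 0.133). The annotation places 119 microRNA genes within Sfmbt2, none of which shares exon bases with it, and the counts of Sfmbt2 say nothing of mature microRNAs.

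The receptor gene Gpr176 (ENSMUSG00000040133, chromosome 2) was measured at 0.908 to 1.54 CPM in WT, with a median of 1.26 CPM. KO libraries lay between 20.6 CPM in KO 2 and 35.8 CPM in KO 5, with a median of 26.1 CPM. No KO library came within 13.4 times of the highest WT library. Means were 27.4 ± 4.71 CPM in KO and 1.25 ± 0.213 CPM in WT (SD, n = 8), a fitted log2 difference of 4.46 (SE 0.131). WT counts of Gpr176 were 12 to 16 per library and KO counts 242 to 725. Its exons share 133 bases with Gm29232 on the same strand in GENCODE M21, a transcript that the count files do not list, so reads in that stretch could belong to either.

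2610528A11Rik (ENSMUSG00000096001, chromosome 14) gave 1, 2 or 3 counts in each WT library and 13 counts in all 8. In KO it gave 373 to 917 counts per library, or 30.1 CPM in KO 4 to 54.4 CPM in KO 3, with a median of 37.0 CPM and a mean of 39.8 ± 9.27 CPM (SD, n = 8). Since no WT library exceeded the floor of 3 counts, which is 0.209 to 0.336 CPM in the WT libraries, only a lower bound of the fold can be given. The KO mean was at least 149-fold higher than the mean WT floor of 0.267 CPM (3 counts per library).

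Rundc3b (ENSMUSG00000040570, chromosome 5) gave 2 or 3 counts in each WT library and 18 in all. KO libraries gave 146 to 422 counts, or 11.4 CPM in KO 6 to 20.9 CPM in KO 5, with a median of 13.9 CPM. With a mean of 14.3 ± 3.07 CPM (SD, n = 8) it was at least 53.5-fold higher in KO than the mean WT floor. Without KO 5 the highest library was at 16.1 CPM.

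4930452B06Rik (ENSMUSG00000021747, chromosome 14) gave 0 counts in WT 8, 1 or 2 in the other WT libraries and 11 in all. In KO it lay between 14.4 CPM in KO 6 and 24.3 CPM in KO 2, with a median of 18.9 CPM, from 180 to 416 counts per library. Its KO mean of 18.4 ± 3.51 CPM (SD, n = 8) was at least 69.0-fold higher than the mean WT floor. WT counts at or under 3 per library cannot tell a low level of these 3 genes from none.

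**Figure D1:**
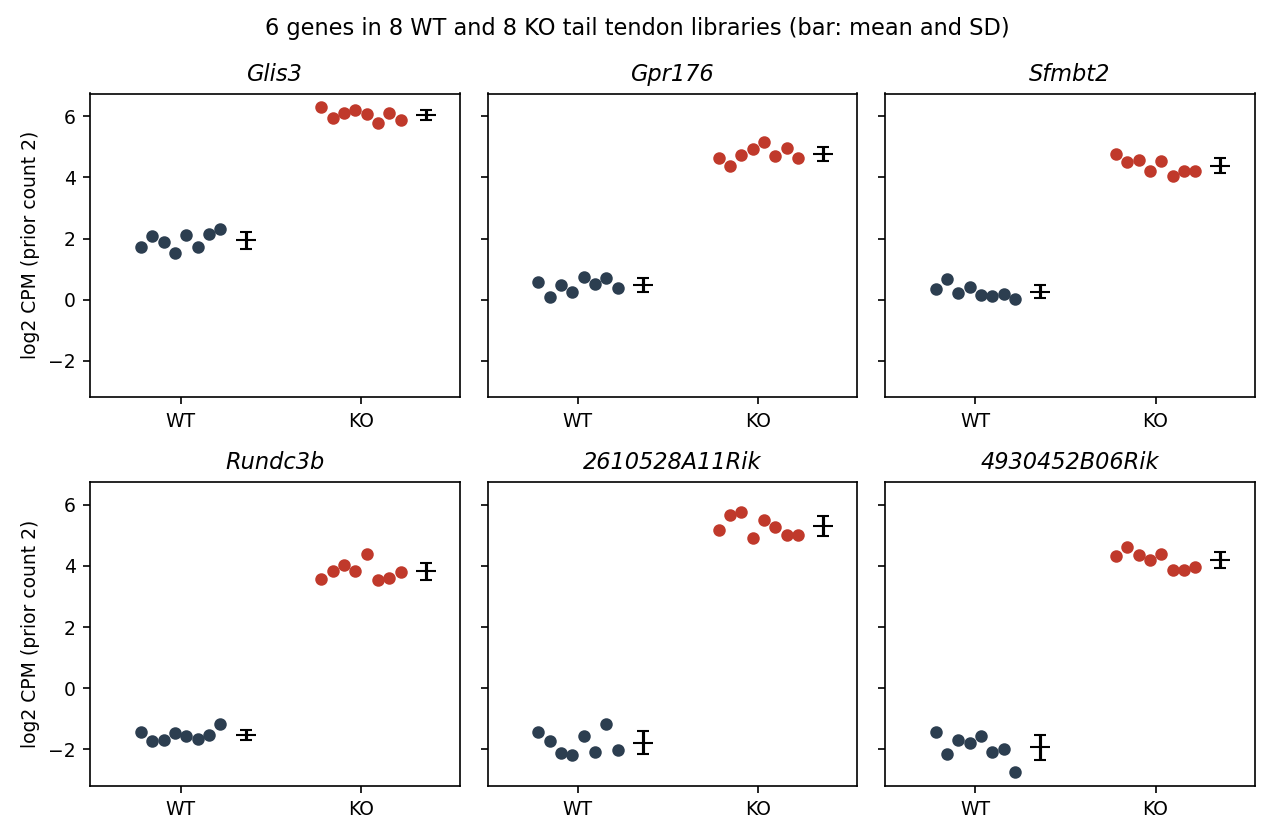
Level of each gene in every library, as log2 CPM with a prior count of 2, for WT (dark) and KO (red). Points are libraries in the order of their numbers, and the bar beside them is the mean with its SD (n = 8). The groups do not overlap for any of the 6 genes, which the choice of genes fixed. WT points of the 3 genes in the lower row rest on 0 to 3 counts.

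Between genes, levels were compared only per kilobase of annotated exon. In KO, 2610528A11Rik, with 828 exon bases, stood highest at 48.1 CPM per kilobase (range 36.3 to 65.7). Glis3 at 7.48 (6.12 to 8.82), Gpr176 at 7.02 (5.28 to 9.19) and 4930452B06Rik at 5.62 (4.39 to 7.42) followed with ranges that overlapped from each to the next. Rundc3b was at 3.73 CPM per kilobase (2.98 to 5.46) and Sfmbt2 lowest at 2.29 (1.78 to 2.95). The ranges of 4930452B06Rik and Rundc3b overlapped, while that of Sfmbt2 lay just under that of Rundc3b. In WT the 3 genes above the floor were at 0.423 for Glis3, 0.321 for Gpr176 and 0.117 CPM per kilobase for Sfmbt2.

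The KO libraries varied far less in these genes than in the marker genes Pecam1, Rgs5, Hbb-bs and Acta1. The highest KO library was 1.44 times the lowest for Glis3, 1.66 for Sfmbt2, 1.69 for 4930452B06Rik, 1.74 for Gpr176, 1.81 for 2610528A11Rik and 1.83 for Rundc3b. The HIF targets Egln3 (a HIF prolyl hydroxylase), Car9 (a carbonic anhydrase) and Vegfa (the vessel growth factor) had ratios of 1.68, 1.60 and 1.79. The endothelial gene Pecam1 spanned 32.3-fold, the pericyte gene Rgs5 21.2-fold, the globin gene Hbb-bs 8.74-fold and the muscle actin gene Acta1 49.9-fold. Other markers of the same lists were narrower in KO, such as the mural Cspg4 (144 to 239 CPM), the endothelial Tek (14.9 to 32.7 CPM) and the erythroid Alas2 (8.29 to 20.5 CPM). Not every listed HIF target was even: Angptl4 ranged from 2.73 to 47.6 CPM in KO. The small spread is part of what the genes were chosen for. Over all tested genes it was not extreme: 36.9% of genes had a smaller SD of log2 CPM among KO libraries than Glis3, and for the other 5 this share was 60.8% to 76.5%.

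**Figure D2:**
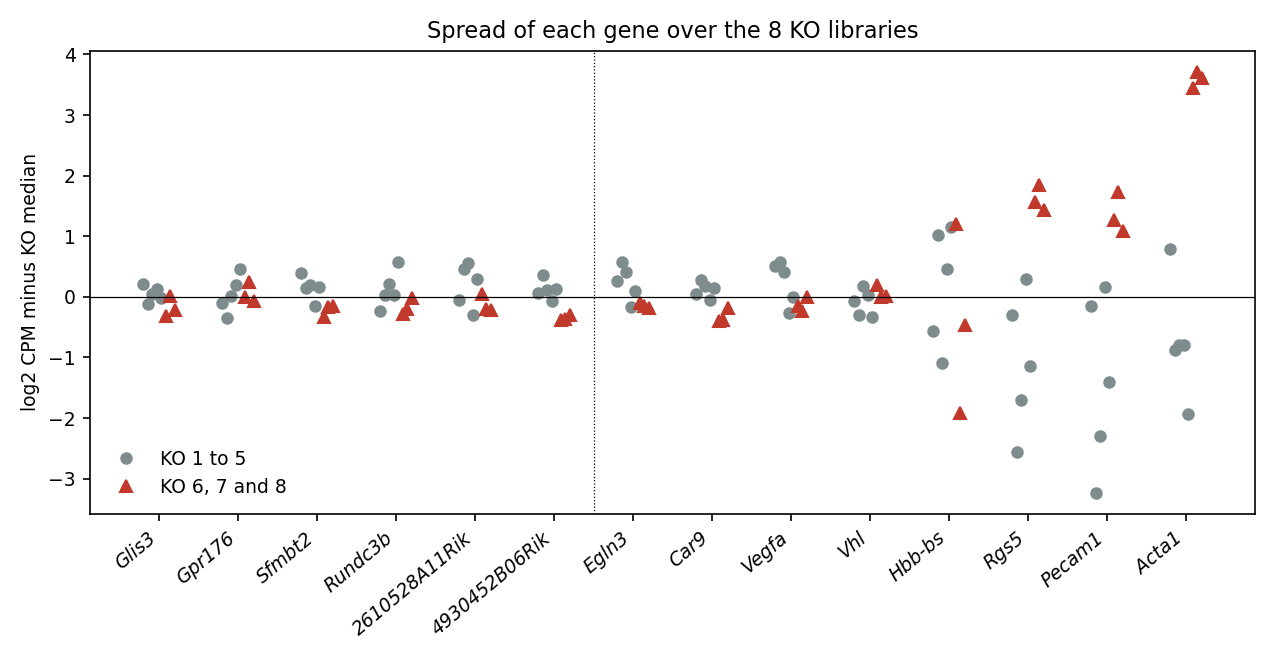
Each gene's log2 CPM in the 8 KO libraries minus its KO median, for the 6 genes (left of the dotted line) and for HIF targets, Vhl and marker genes of blood, vessels and muscle (right). Red triangles are KO 6, 7 and 8. Acta1, Rgs5 and Pecam1 are high in those 3 libraries, whereas 4930452B06Rik, Sfmbt2 and Car9 are lowest in them.

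WT counts of 4 genes varied less than counting alone would give on average, where the variance over libraries would equal the mean. The ratio of variance to mean was 0.231 for Gpr176, 0.0952 for Rundc3b, 0.341 for 2610528A11Rik and 0.403 for 4930452B06Rik, against 1.11 for Sfmbt2 and 1.51 for Glis3. The genes were chosen for even levels, and the part of that choice in these ratios was not tested. The counting error of 1 WT library was 26.6% of its value for Gpr176 and 66.7% for Rundc3b.

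Within each genotype, the levels were set against scores of HIF targets and of tendon, endothelial, muscle and keratinocyte markers. The choice made no split within a genotype, but it used the spread there. The part of the choice in these correlations was not tested. Of 45 gene and score pairs (30 in KO, and 15 in WT for the 3 genes above the floor there), 9 had an exact permutation p under 0.05 and 1 passed after Benjamini-Hochberg adjustment over all 45. This was 4930452B06Rik against the endothelial score in KO, with a Pearson r of -0.96 (exact permutation test, two-sided, p = 0.000744, adjusted p = 0.0335, n = 8) and a Spearman rho of -0.90 (exact permutation p = 0.00456). Without the 2 libraries farthest from the median score r was -0.92. Leaving out any 1 KO library gave r between -0.98 and -0.94, but the adjusted exact permutation p then rose to between 0.0536 and 0.172, except without KO 6 (0.0179). By rank no pair passed the adjustment, and 6 had an unadjusted exact permutation p under 0.05.

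KO 6, 7 and 8 had the 3 highest endothelial scores (5.00 to 5.58, against 2.30 to 4.07) and the 3 lowest levels of 4930452B06Rik, 14.4 to 15.3 CPM against 18.1 to 24.3 CPM in KO 1 to 5. They also formed the separate cluster by muscle markers, and neither cluster holds the 6 libraries needed for a correlation of its own. Pairs with the muscle score are counted among the 45, and in KO this cluster forms 1 end of them. 4930452B06Rik had an r of -0.88 with the muscle score in KO (rho -0.83, exact permutation p = 0.00652, adjusted p = 0.0907, n = 8). It was -0.79 without the 2 farthest libraries. Rundc3b had an r of -0.74 (rho -0.71, exact permutation p = 0.0237, adjusted p = 0.137, n = 8). Neither passed the adjustment. Whether the endothelial and muscle relations of 4930452B06Rik differ was not tested. The same cluster forms 1 end of the endothelial relation, which could not be tested within it. Sfmbt2 was also at the low end in these libraries, at 16.2 to 18.4 CPM against 18.5 to 27.0 CPM. Glis3, Gpr176, Rundc3b and 2610528A11Rik overlapped between both sets of KO libraries. 2610528A11Rik also had a negative r with the endothelial score in KO, -0.83 (rho -0.76, exact permutation p = 0.0181, adjusted p = 0.136, n = 8; -0.76 without the 2 farthest libraries), which did not pass the adjustment. Whether the relation differs between these 2 genes was not tested.

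**Figure D3:**
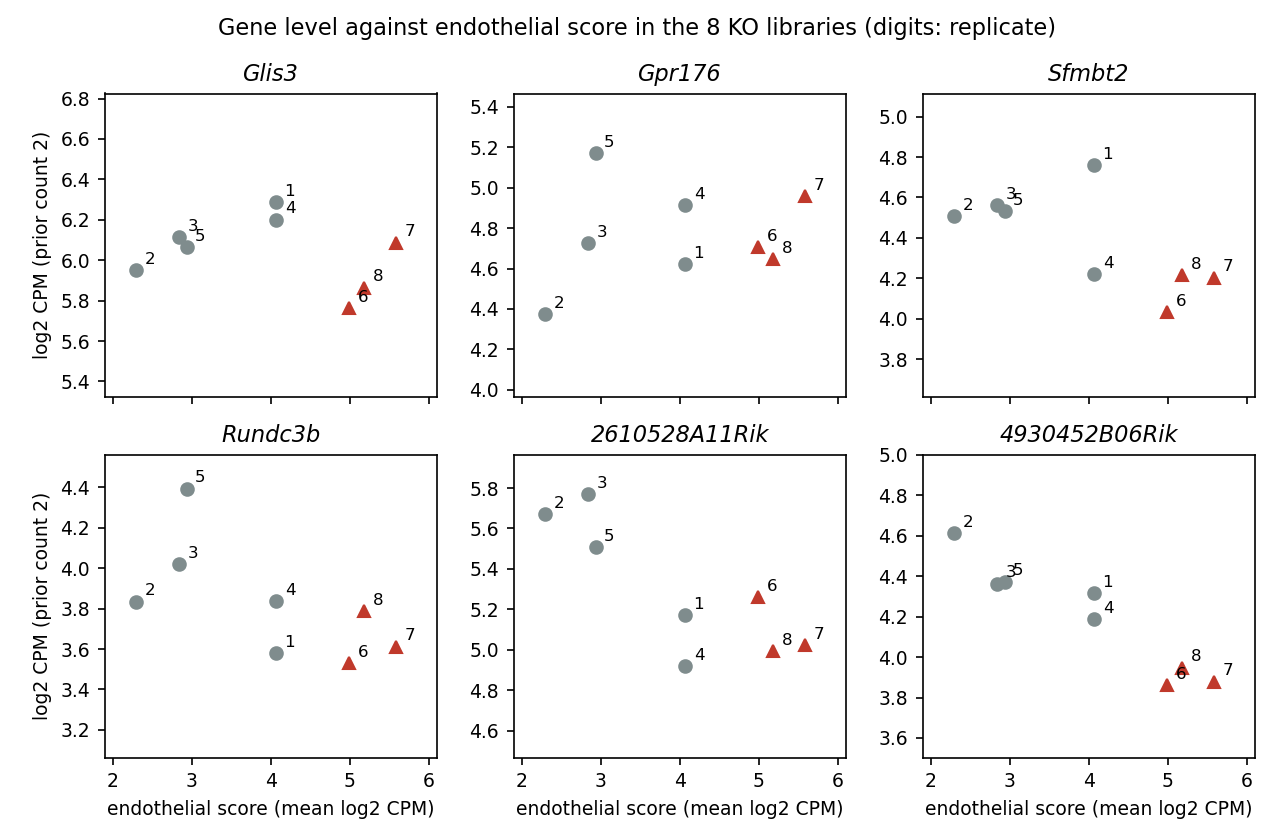
Level of each gene (log2 CPM, prior count 2; every panel spans the same height) against the endothelial score (mean log2 CPM of endothelial markers) in the 8 KO libraries, labelled with their numbers. Red triangles are KO 6, 7 and 8. 4930452B06Rik falls from KO 2 to those 3 libraries (r = -0.96), and the other 5 genes did not pass the adjusted threshold.

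With the HIF target score, 2610528A11Rik had an r of 0.88 in KO (rho 0.90, exact permutation p = 0.00590, adjusted p = 0.0907, n = 8; r without the 2 farthest libraries 0.71) and 4930452B06Rik an r of 0.86 (rho 0.69, exact permutation p = 0.00806, adjusted p = 0.0907, n = 8; 0.71 without those 2). Neither passed the adjustment. Sfmbt2 had an r of 0.77 with this score (rho 0.60, exact permutation p = 0.0276, adjusted p = 0.138, n = 8; 0.90 without those 2). For Glis3, Gpr176 and Rundc3b the r with the HIF target score was 0.15, -0.48 and 0.33. KO 6, 7 and 8 lay close together near the low end of this score, at 7.42 to 7.44. KO 1 to 5 spanned 7.34 to 8.01. The part of this cluster in the r with the HIF target score was not tested. In WT the highest r was that of Gpr176 with the keratinocyte score, 0.77 (rho 0.81, exact permutation p = 0.0244, adjusted p = 0.137, n = 8), which was 0.28 without the 2 farthest libraries. Among the 6 genes themselves, 15 pairs were compared in KO. The highest r was between Sfmbt2 and 4930452B06Rik, 0.79 (rho 0.76, exact permutation p = 0.0310, adjusted p = 0.442, n = 8; 0.85 without the 2 farthest), and the lowest was -0.28 between Gpr176 and 4930452B06Rik. No pair passed the adjustment by Pearson's r, and 1 had an unadjusted exact permutation p under 0.05 by either measure.

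The genes most alike in their deviations from the genotype means over 16 libraries were named by Pearson's r among 13679 genes, as a description. For Glis3 these were Pglyrp1 (0.88), Gapdhs (0.81) and Prkrip1 (0.79). For Sfmbt2 they were Cdc25b (0.90), Faap100 (0.87) and Minar2 (0.87), and for Gpr176 Atp5g3 (0.84), Irf2bp2 (0.84) and Efhd2 (0.80). The nearest to 2610528A11Rik were Srek1ip1 (0.76), Pde1c (0.74) and Isg20 (0.74), to Rundc3b Gm21981 (0.90), Tomm6 (0.89) and Prdx5 (0.87), and to 4930452B06Rik Slc6a15 (0.88), 6720475M21Rik (0.86) and Clic4 (0.83). No gene was named for more than 1 of the 6. For Rundc3b, 2610528A11Rik and 4930452B06Rik the WT deviations rest on 0 to 3 counts per library, where counting error is large.

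Relatives and partners of 5 of the genes, which were listed by function, moved in both directions. Of 99 listed genes 81 were tested, and 17 were higher and 25 lower in KO (51.9% called, against 48.3% of all tested genes), with a median log2 difference of -0.04 against 0.02. With total counts 43 of them were higher. The endothelial marker sums given above also differed between the genotypes, and their part in these differences was not tested.

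Of the GLI, GLIS and ZIC zinc fingers and partners of GLIS3, 10 of 13 were tested, 1 was higher and 3 were lower (40% called, median log2 difference -0.06). Of the 2 other Glis genes, Glis2 was lower, at 116 ± 16.9 CPM in KO against 177 ± 14.1 CPM in WT (SD, n = 8), with no overlap (log2 difference -0.61, SE 0.0838, edgeR F test, Benjamini-Hochberg adjusted p = 5.14e-06). Glis1 was at 3.73 ± 0.844 and 3.83 ± 0.705 CPM and did not pass the threshold (adjusted p = 0.861). Of the Hedgehog effectors, Gli2 fell by 0.55 and Gli3 by 0.44 on the log2 scale (adjusted p = 5.96e-05 and 3.59e-05), and Gli3 lost its call with total counts. Zic1, a patterning factor of the embryo, rose by 0.32 (adjusted p = 0.00760), a call lost without the 4 libraries with high Scx (KO 5, 6 and 8 and WT 8).

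In the list near Gpr176, of Gz, Gi, their regulators and adenylyl cyclases, 13 of 17 genes were tested, 3 were higher and 4 lower (53.8% called, median -0.10). Gnaz, which encodes the alpha subunit of Gz, rose from 5.86 ± 1.12 to 15.8 ± 3.66 CPM (SD, n = 8), with no overlap (log2 difference 1.43, SE 0.143, edgeR F test, Benjamini-Hochberg adjusted p = 8.59e-08). Gnai1, which encodes a Gi alpha subunit, fell from 12.6 ± 2.13 to 7.04 ± 1.35 CPM without overlap (-0.84, adjusted p = 1.33e-05). Rgs16, a regulator that speeds the shut-off of Gi, ranged from 1.05 to 9.94 CPM over the KO libraries, a mean of 3.59 ± 3.39 CPM. In WT it lay at 0 to 0.864 CPM, a mean of 0.404 ± 0.254 CPM. With WT levels this low, its log2 difference of 3.20 (SE 0.626) is given as a description only. Of the adenylyl cyclases, which make cAMP, Adcy4 rose by 2.06 (adjusted p = 1.34e-05), while Adcy9 fell by 0.62, Adcy7 by 0.82 and Adcy2 by 0.87 (adjusted p = 1.08e-07, 9.32e-07 and 1.80e-06). The rise of Adcy4 was uneven, with 3.49 to 15.4 CPM over the KO libraries against 1.64 to 2.50 CPM in WT. Groups did not overlap for any of these 4 cyclases, which are the ones that passed the threshold. Of all tested genes 10.8% were higher in KO with no overlap, and the share lower with no overlap is not given here.

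Near Sfmbt2, 29 of 30 MBT-repeat and Polycomb genes were tested, 5 were higher and 10 lower (51.7% called, median 0.00). L3mbtl3, an MBT-repeat gene, fell from 47.4 ± 4.99 to 20.9 ± 1.62 CPM (SD, n = 8) with no overlap (log2 difference -1.18, SE 0.0715, edgeR F test, Benjamini-Hochberg adjusted p = 7.12e-11). Members of both Polycomb complexes moved in both directions. Pcgf5 rose by 0.69, Suz12 by 0.39 and Bmi1 by 0.40 without overlap (adjusted p = 2.91e-07, 1.82e-04 and 6.40e-04), and Mbtd1 rose by 0.25 (adjusted p = 0.0119). Cbx6 fell by 0.52, Ezh2 by 0.40 and Ring1 by 0.29 (adjusted p = 1.25e-05, 4.37e-04 and 8.88e-04). With total counts Ezh2 lost its call and Ring1 changed sign. The closest relative, Sfmbt1, which lies outside the naming rule and was named after its values were seen, was at 34.9 ± 2.61 CPM in KO and 41.8 ± 3.44 CPM in WT, a log2 difference of -0.26 that turned to 0.05 with total counts.

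Of the RUN-domain genes and RAP2 partners near Rundc3b, 23 of 24 were tested, 8 were higher and 5 lower (56.5% called, median 0.12). Rubcn, an inhibitor of autophagy, rose from 43.8 ± 4.32 to 74.1 ± 9.70 CPM (SD, n = 8) with no overlap (log2 difference 0.76, SE 0.0812, edgeR F test, Benjamini-Hochberg adjusted p = 2.34e-07). Rap2a, one of the RAP2 GTPases, rose by 0.53, Rufy3 by 0.50 and the lysosome adaptor Plekhm1 by 0.38 (adjusted p = 6.37e-06, 2.14e-05 and 5.50e-04). Rufy1 fell by 0.33, Rap2b by 0.34, Snx29 by 0.28 and Rufy2 by 0.22 (adjusted p = 8.75e-04, 8.94e-04, 0.00990 and 0.0143). All 4 of these calls were lost with total counts, where Snx29 and Rufy2 changed sign, and that of Rufy2 also without KO 6, 7 and 8. The paralogue Rundc3a, named after its values were seen, was at 2.68 ± 0.584 CPM in KO and 1.76 ± 0.812 CPM in WT with overlap (log2 difference 0.63, adjusted p = 0.0244), a call lost without WT 3, WT 6 or WT 7 and without KO 6, 7 and 8.

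Of the small secreted skin proteins and Gpr15, set beside 2610528A11Rik, 6 of 15 were tested, none was higher and 3 were lower (edgeR quasi-likelihood test, adjusted p under 0.05; 50% called, median -0.62). Cxcl14, a chemokine of skin, fell from 250 ± 72.3 to 74.3 ± 18.1 CPM (SD, n = 8) with no overlap (log2 difference -1.75, SE 0.206, adjusted p = 1.87e-06). Krtdap, a keratinocyte differentiation peptide, fell by 1.30 and the skin chemokine Ccl27a by 0.77 (adjusted p = 0.00225 and 0.00137). The receptor gene Gpr15 had 2 counts in all 16 libraries together. Of 14 keratinocyte markers, 5 were tested, 1 was higher and 3 were lower. Sfn rose from 3.81 to 7.02 CPM (log2 difference 0.88, adjusted p = 4.09e-05), Krt10 fell by 0.35, Dsp by 1.01 and Perp by 1.44 on the log2 scale, and Trp63 was at 7.92 CPM in WT and 8.96 CPM in KO. The other keratins of the list had 0 to 12 counts over all 16 libraries (Krt5 4, Krt14 12, Krt17 9, Krt1 and Krt15 0). The tested markers summed to 29.3 to 35.9 CPM in KO and 32.5 to 65.5 CPM in WT, and their part in the level of 2610528A11Rik was not tested.

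**Figure D4:**
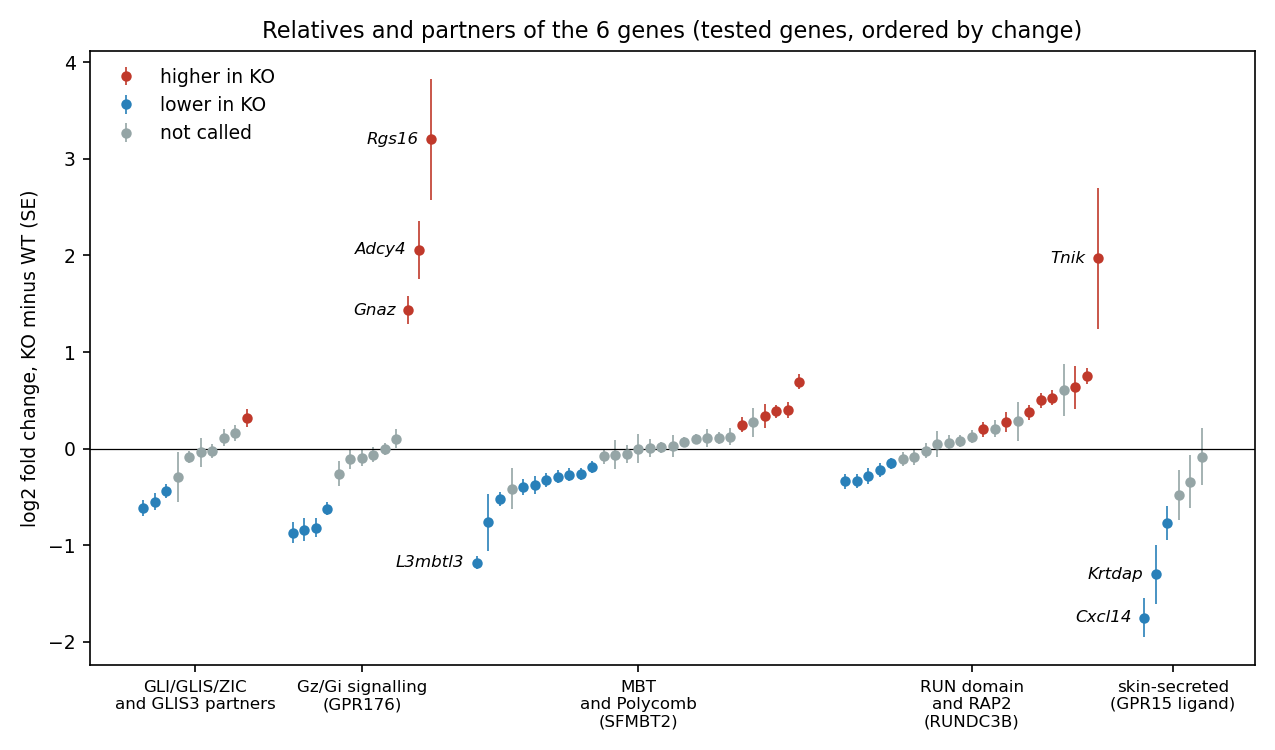
Log2 difference between KO and WT (points, with SE) of the 81 tested relatives and partners in 5 lists, ordered by size within each list. Red points were higher in KO, blue lower and grey not past the adjusted threshold. Gnaz, Adcy4 and Rgs16 stand at 1.43 to 3.20 in the Gz and Gi list, L3mbtl3 at -1.18 and Cxcl14 at -1.75, and every list but that of skin-secreted proteins holds points of both colours.

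Genes beside the 6 on their chromosomes were called in both directions. The 3 nearest listed genes on each side make 36 neighbours, of which 23 were tested, 7 were higher and 3 were lower (43.5% called, against 48.3% of all tested genes). The 7 of 23 higher stand beside the 25.6% of all tested genes that were higher. Among the 7 are Rasgrp1 and Cdhr1, which were near or at the floor in WT and passed the filter through their KO libraries. With total counts 16 were called and 14 of them were higher. Beside Glis3, none of the 4 tested neighbours passed (edgeR quasi-likelihood test, adjusted p under 0.05), and 1 had an unadjusted p under 0.05, Plpp6, at -0.22 (adjusted p = 0.0600), which was called by DESeq2, by limma-voom, under the replicate block and without KO 4, KO 6 or WT 3. Beside Gpr176, Eif2ak4, the kinase GCN2 of the amino acid response, rose by 0.37 (adjusted p = 7.95e-04). Rasgrp1, an activator of Ras and the third gene on the other side, rose from 0.269 ± 0.164 to 2.01 ± 0.498 CPM without overlap (SD, n = 8). Its WT libraries lay at 0 to 0.454 CPM, around the floor of 3 counts, so the difference is described without a test. Rasgrp1 was too low for the naming rule and was named after its values were seen.

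Beside Sfmbt2 lies Pfkfb3, an enzyme that drives glycolysis and a known HIF target, which rose from 39.8 ± 5.66 to 143 ± 25.5 CPM (SD, n = 8) with no overlap (log2 difference 1.84, SE 0.111, edgeR F test, Benjamini-Hochberg adjusted p = 6.39e-11). Prkcq lies between them and did not pass (1.89, SE 0.858, adjusted p = 0.0829). On the other side Itih5 differed by 0.27 (adjusted p = 0.0474), a call lost under most alternatives, and Itih2 fell by 1.47 (adjusted p = 6.69e-07). Beside Rundc3b, Adam22 fell from 90.9 ± 14.1 to 33.4 ± 6.14 CPM (-1.45, adjusted p = 4.16e-09) and Dbf4, a subunit of a replication kinase, rose by 0.71 (adjusted p = 5.73e-04). Beside 4930452B06Rik the 1 tested neighbour, 3830406C13Rik, fell by 0.37 (adjusted p = 9.55e-04), a call lost with total counts.

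The gene next to 2610528A11Rik, Cdhr1, a photoreceptor cadherin, was also at the floor in WT and above it in every KO library. It had 1 count over all 8 WT libraries and 20 to 60 counts in each KO library, or 1.61 to 3.59 CPM. The KO mean of 2.82 ± 0.557 CPM (SD, n = 8) was at least 10.6-fold higher than the mean WT floor. Cdhr1 passed the filter on low counts only through its KO libraries, so this difference is described without a test. Cdhr1 was named after its values were seen, being under the level set for naming. Exons of 2610528A11Rik overlap no other gene in GENCODE M21. On the other side Ghitm, a mitochondrial membrane protein, rose by 0.31 (adjusted p = 0.00285), and the other 4 neighbours were too low to test.

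**Figure D5:**
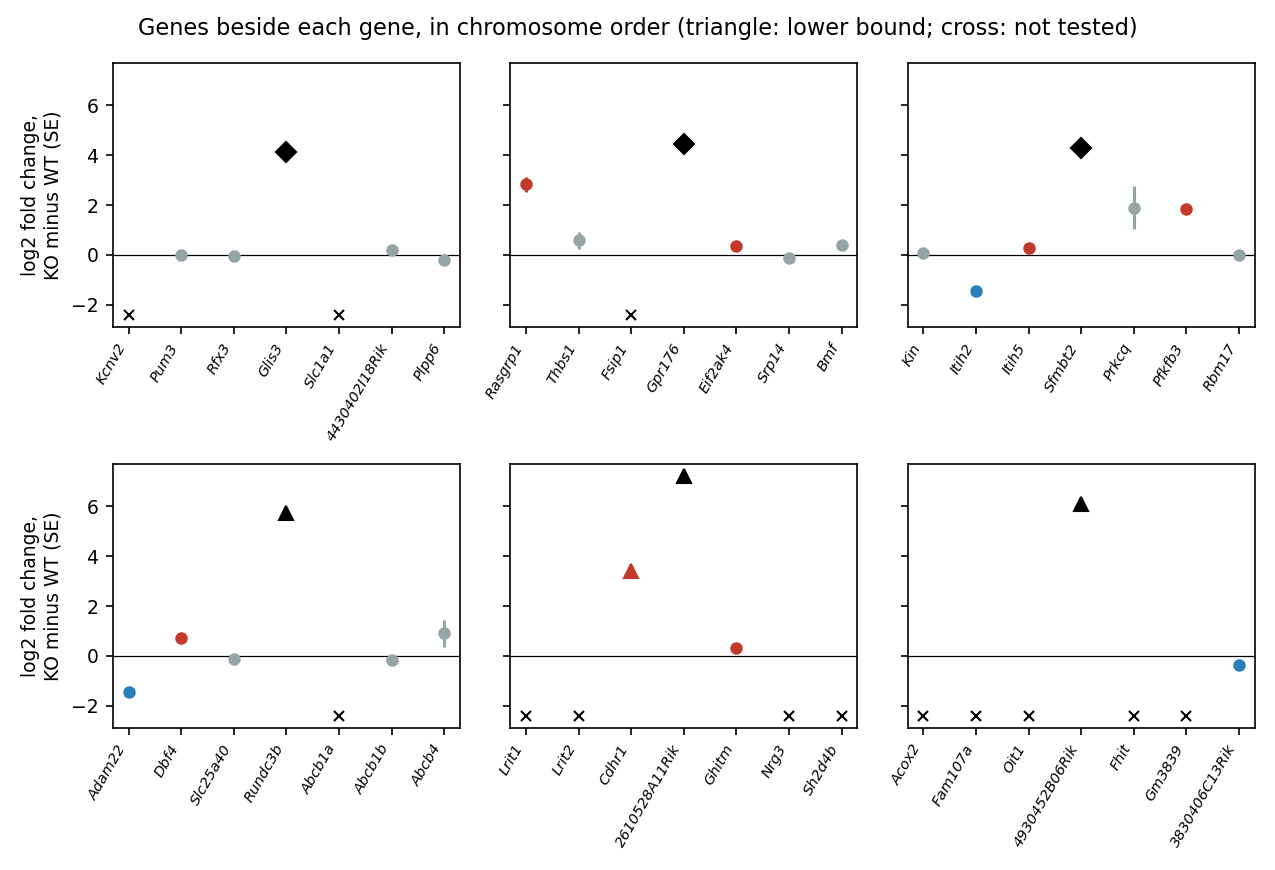
Log2 difference between KO and WT of the 3 nearest listed genes on each side of the 6 genes, in chromosome order (circles with SE; red higher, blue lower, grey not past the threshold). Black marks are the 6 genes themselves, triangles are lower bounds against a floor of 3 counts and crosses are untested genes. Cdhr1, Rasgrp1 and Pfkfb3 are the called neighbours that lie farthest above 0, and no tested neighbour of Glis3 passed.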

How the data were processed

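RNA of tail tendon fascicles was sequenced from 8 KO and 8 WT libraries. The deposited files hold whole-number counts per Ensembl gene, which the authors made with tools that the submitters' processing notes list as kallisto and featureCounts on GRCm39; versions, strand setting and annotation are not given in the sources used here. The members and lists were chosen with earlier results of these data known. Of 25719 listed IDs 25614 were matched to a symbol (RefSeq table of GRCm38.p6 and GENCODE M21, used for names, gene order, exon length and promoters only). Counts were scaled with TMM and tested with edgeR 4.0.16 (filterByExpr, robust quasi-likelihood F test, two-sided, genotype only, Benjamini-Hochberg over 14803 genes, threshold 0.05) in R 4.3.3. The test was checked on simulated counts. CPM are on the TMM scale, and log2 CPM has a prior count of 2. Scores are mean log2 CPM of tested markers. Correlations within a genotype used all 40320 orders of 8 libraries. Library checks used all 12870 groupings of 16 libraries.

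Named were all 6 genes, the listed relatives and neighbours past the threshold with a mean log2 CPM of at least 1 (at most 4 per list and direction, by adjusted p), and the 3 genes most alike to each. Nothing in the labels says that the libraries are separate animals beyond their numbers, so p-values measure the spread between these libraries. Counting error alone is 15.3% per WT library for Glis3 and 3.18% per KO library. Alternatives were DESeq2 1.42.0 (size factors, Wald test), total counts, TMM without the 20 most abundant genes, other filters (none, or a mean count of 10), limma 3.58.1 voom, a replicate block, a muscle score covariate, a prior count of 0.5, rank correlation and each library left out; 2 sets of libraries (4 with high Scx, 3 with high muscle markers) were left out after seeing the data. Protein sequences were not used here.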

Additional observations from a re-analysis of the deposited data

Results flagged for a closer look

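Of 40 checks for a library that stands apart within a genotype, 2 were met, where chance gives about 1 in 20 or 2 in all. Both concern the same library. The TMM factor of WT 3 was 1.067 against 0.935 in the next WT library, a gap of 0.545 of the whole range of the 8 libraries, past the critical value. The chondrocyte score of WT 3 was 2.708 against 3.522 in the next lowest WT library, a gap of 0.560 of the range. No level of the 6 genes met this check in either genotype. WT 3 had 45 counts of Glis3, 16 of Gpr176 and 13 of Sfmbt2, inside the ranges of the other WT libraries.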

How the results depend on the processing

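All 168 values of the 6 genes' log2 differences under the alternatives were higher in KO. Of these, 6 were flagged as moved, 4 with total counts and 2 with limma-voom. Each of them moved by more than the SE of the fitted difference. Some values moved by more than that SE without a flag, such as 4930452B06Rik from 7.155 (SE 0.222) to 7.445 with total counts. The log2 differences of all 6 genes were larger with total counts. Glis3 went from 4.15 (SE 0.114) to 4.45 with total counts, and 2610528A11Rik from 8.04 (SE 0.223) to 7.69 with limma-voom. Genes called in either direction numbered 6149 to 9685 (against 7151), with 7010 under the replicate block, which changed no direction of the 6 genes. Nothing in the labels says that same-numbered KO and WT libraries are paired. The correlation of their deviations ranged from -0.45 to 0.44, and 2 of 8 KO libraries (KO 1 and KO 2) correlated best with their own number. Under the replicate block the SE rose for Glis3 (0.114 to 0.123) and fell for the others of the 6, as for Gpr176 (0.131 to 0.0904). The part of cell content in these correlations was not tested, so they cannot exclude a pairing. With total counts 8270 genes were higher in KO (against 3792), 43 related genes (against 17) and 14 neighbours (against 7), with 16 neighbours called in all (against 10). Relative to TMM, that scaling shifts all genes upward in KO. The TMM factors themselves differed by genotype, with means of 1.11 in KO and 0.902 in WT (exact permutation test, two-sided, p = 0.000311, n = 8). Which scaling is nearer to the RNA content of the tissue was not tested. Without the 4 libraries with high Scx, 36 related genes were called (against 42) and without KO 6, 7 and 8, 37. Correlations past the adjusted threshold numbered 0 by Spearman (6 at an unadjusted p under 0.05) and 0 to 2 when 1 library was left out (0 without KO 1, 2, 3, 4, 5, 7 or 8, where 7 to 10 had an unadjusted exact permutation p under 0.05, and 2 without WT 3). With 7 libraries fewer orders are possible. Levels of Rundc3b, 2610528A11Rik and 4930452B06Rik in WT are limited by depth.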
